A study of Mus musculus with 24 samples.

Results

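The 10 genes described here, Apoe, C1qa, C1qb, C1qc, Csf1r, Cd68, Lyz2, Adgre1, Cd74 and Mrc1, are genes widely used to mark macrophages, and they were followed through poly(A) RNA-seq libraries of germ cell fractions of the mouse testis. They are 10 of the 55536 genes in the deposited table and were found by matching each gene's Ensembl identifier to its symbol in GENCODE M21. The set was chosen by the difference between Ago413-/- and wild-type round spermatids, whose higher values for macrophage genes were already known, so that the genotype differences in that fraction are given as a description, and no test of them is read as support. Libraries came from males of 10 to 15 weeks on a C57BL/6J background that were Ago413+/+ (wild-type), Ago413+/- (heterozygous) or Ago413-/-, where the mutant allele removes all of Ago1 and part of Ago3 and Ago4, so the effect of a single Argonaute gene cannot be read from these groups. Each library pooled the testes of 2 to 5 mice, and fractions enriched for pachytene/diplotene spermatocytes or for round spermatids on an albumin gradient were kept, per the labels, where over 70% of the cells were of the wanted type; the study's methods give a lower purity for spermatocytes than for round spermatids, so the share of other cells may differ between the fractions. There were 4 wild-type, 3 heterozygous and 3 Ago413-/- spermatocyte libraries and 3, 4 and 4 round spermatid libraries, which leaves out 3 of the 24 deposited libraries that the labels name as outliers.

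Tissue macrophages engulf dying cells and debris, carry them to lysosomes and can present peptides on MHC class II molecules. In the testis they lie in the interstitium and on the tubule wall, outside the seminiferous tubules in which germ cells mature, and depend on signalling through the receptor encoded by Csf1r. A cell suspension made from digested tubules can hold some of them, and several of the genes named after macrophages are also transcribed in other cells. In bulk libraries like these, fewer cells of a type and less RNA per cell cannot be told apart.

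Total counts ran from 12825105 to 29749058 in the 21 libraries used. Ago1 had 0 counts in all 7 Ago413-/- libraries and between 24 and 135 in the other 17, left-out libraries included. The summed level of 7 spermatid genes lay between 3279 and 11825 CPM (a gene's counts per 1000000 counts of the TMM-scaled library total) in spermatocyte libraries and between 15078 and 40547 CPM in round spermatid libraries. The left-out wild-type replicate 3 pair went the other way, with 13210 CPM in the library labelled spermatocytes and 4934 CPM in the library labelled round spermatids.

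Promoters are shown for 4 members because they belong to genes that behaved differently below. Apoe and C1qb had signal in every library, and C1qc and Lyz2 had none in wild-type spermatocytes. The 250 bases before the RefSeq start (the outermost one for Apoe), on the strand of the gene (minus for all 4) and in GRCm38.p6, lie at chr7:19699189-19699438 for Apoe, chr4:136886201-136886450 for C1qb, chr4:136892915-136893164 for C1qc and chr10:117282273-117282522 for Lyz2. Capitals mark the letters AGGAAGT or, on the other strand, ACTTCCT, the core bound by ETS factors such as PU.1, which macrophages require; the motif was chosen after the sequences had been seen.
Apoe: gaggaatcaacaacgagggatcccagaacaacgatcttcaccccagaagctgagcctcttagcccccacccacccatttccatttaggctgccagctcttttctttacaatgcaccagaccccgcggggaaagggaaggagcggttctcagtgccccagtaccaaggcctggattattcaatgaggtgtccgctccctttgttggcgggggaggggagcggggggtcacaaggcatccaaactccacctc
C1qb: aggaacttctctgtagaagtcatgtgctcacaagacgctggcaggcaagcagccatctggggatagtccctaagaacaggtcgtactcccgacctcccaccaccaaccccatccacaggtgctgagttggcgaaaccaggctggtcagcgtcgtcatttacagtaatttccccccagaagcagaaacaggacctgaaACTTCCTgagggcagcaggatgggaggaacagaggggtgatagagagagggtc
C1qc: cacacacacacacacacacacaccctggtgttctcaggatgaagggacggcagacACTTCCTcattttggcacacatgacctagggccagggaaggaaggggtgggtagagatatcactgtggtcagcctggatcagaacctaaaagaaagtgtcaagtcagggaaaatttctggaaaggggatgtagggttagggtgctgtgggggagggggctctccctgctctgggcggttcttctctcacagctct
Lyz2: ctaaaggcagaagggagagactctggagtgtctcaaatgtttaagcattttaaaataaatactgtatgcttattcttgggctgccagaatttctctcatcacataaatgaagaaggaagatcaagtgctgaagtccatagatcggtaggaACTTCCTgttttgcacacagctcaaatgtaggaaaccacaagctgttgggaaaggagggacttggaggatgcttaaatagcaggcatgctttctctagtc
The motif stood once in C1qb (53 bases before the start, counted from its first letter), once in C1qc (195 bases), once in Lyz2 (100 bases) and once in Mrc1 (211 bases), and not in Apoe or Cd68, for a match in 4 of the 6 members examined. C1qa and Adgre1 had no entry, and Csf1r and Cd74 were not examined here. Of all 32851 promoters of this length, 2525 (7.69%) held it. A match describes the letters only, and C1qb and C1qc, which both hold it, had different patterns across the libraries.

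The macrophage genes did not share a single level or a single pattern. Per kilobase of exon, which allows genes to be compared, Apoe was highest at a mean of 8.63 CPM over the 21 libraries, followed by C1qb at 4.05 and Cd74 at 2.71. Mrc1 (0.893), Adgre1 (0.835), C1qa (0.783) and Lyz2 (0.734) lay close to each other, and C1qc (0.338), Cd68 (0.250) and Csf1r (0.237) were lowest. Several members were at the edge of detection: C1qc had 0 counts in 5 of the 21 libraries, C1qa and Lyz2 in 4 each and Cd68 in 1, and the most counts Cd68 had in any library was 21.

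**Figure D1:**
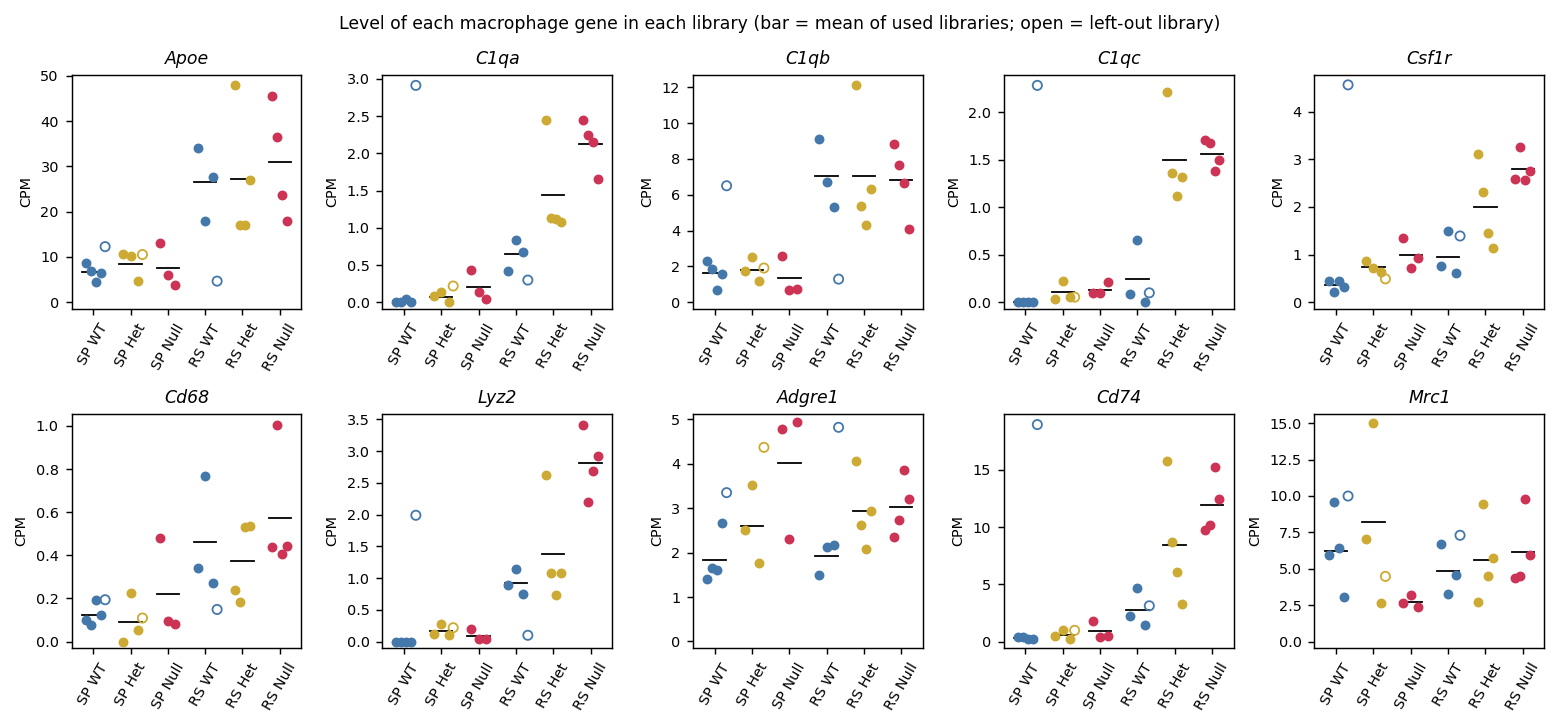
Level of each of the 10 genes in CPM (vertical axis, own scale per panel) in spermatocyte (SP) and round spermatid (RS) libraries of the 3 genotypes; filled points are used libraries, bars their means and open points the left-out libraries. Apoe, C1qb, C1qa, Csf1r, Lyz2 and Cd74 separate the fractions within every genotype, Adgre1 within none, and the left-out library labelled wild-type spermatocytes stands above all used spermatocyte libraries for C1qa, C1qb, C1qc, Csf1r, Lyz2 and Cd74.

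The first comparison asked whether the genes differ between the fractions. Round spermatid libraries held more RNA of most of them than spermatocyte libraries. Across the 3 genotypes together, 8 of the 10 members were called higher in round spermatids and 0 lower by edgeR's quasi-likelihood test (adjusted p under 0.05 and a log2 fold change beyond 0.5), where 27.6% of all tested genes were called in either direction; DESeq2 called the same number of members, with 28.7% of genes called. The count holds members that had to differ: C1qa, C1qc and Lyz2 reached the minimum of 10 counts in no spermatocyte library and Cd68 in 1, so these 4 were tested only through round spermatids. Of the 6 that spermatocytes alone would have kept, Apoe, C1qb, Cd74 and Csf1r rose and Adgre1 and Mrc1 did not pass the test. Within every genotype the round spermatid libraries of 6 members, Apoe, C1qa, C1qb, Csf1r, Lyz2 and Cd74, all lay above the spermatocyte libraries, as for 6.75% of tested genes, and C1qa and Lyz2 are among the members tested only through round spermatids.

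Apoe encodes a lipoprotein that carries cholesterol and is secreted by macrophages and many other cells. In wild-type spermatocytes it stood at 8.76, 6.85, 4.51 and 6.41 CPM and in wild-type round spermatids at 34.2, 17.98 and 27.7 CPM. Spermatocyte libraries of all genotypes reached at most 13.2 CPM and round spermatid libraries began at 17.04 CPM, so the fractions did not overlap over all genotypes together. This also held for C1qb and for Lyz2, which was tested only through round spermatids (3 of 10 members, against 4.41% of all tested genes). On the log2 scale, as for all differences below, Apoe in round spermatids exceeded Apoe in spermatocytes by 1.94 ± 0.25 (SE, n = 11 and 10; adjusted p = 2.5e-06 by edgeR).

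C1qb encodes one of the 3 chains of C1q, the recognition protein that starts the classical complement pathway. It stood at 2.30, 1.88, 0.679 and 1.56 CPM in wild-type spermatocytes and at 9.10, 6.74 and 5.34 CPM in wild-type round spermatids, again with no overlap between the fractions at any genotype. The difference was 2.19 ± 0.26 (SE, edgeR adjusted p = 1.1e-06).

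Cd74 encodes the invariant chain that escorts MHC class II molecules and ranked next per kilobase. Its spermatocyte libraries lay between 0.194 and 1.77 CPM and its round spermatid libraries between 1.42 and 15.8 CPM, with a difference of 3.67 ± 0.33 (SE, edgeR adjusted p = 2.3e-07). Csf1r, the receptor for the growth factors CSF1 and IL34, lay between 0.226 and 1.34 CPM and between 0.609 and 3.26 CPM, a difference of 1.48 ± 0.22 (SE, edgeR adjusted p = 1.2e-05). For both genes the ranges overlapped across genotypes but not within any genotype.

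The C1qa and C1qc chains and Lyz2, the macrophage lysozyme that cuts bacterial cell walls, were nearly absent from wild-type spermatocytes. C1qc and Lyz2 had 0 counts in all 4 of those libraries and C1qa had 1 count in 1 of them. Against a floor of 3 counts over the group, Lyz2 was at least 27.5-fold and C1qc at least 8.73-fold higher in wild-type round spermatids (63 and 20 counts over 3 libraries). Replicate 2 held 18 of the 20 C1qc counts, and the 2 that remain without it are under the floor, so the C1qc bound rests on that library. For C1qa, 43 counts against 1 gave a ratio of 56.3 with an exact 95% interval from 9.58 to 2274, which covers counting error only. Cd68, a lysosomal membrane protein of phagocytes, lay between 0 and 0.478 CPM in spermatocytes and between 0.181 and 1.01 CPM in round spermatids, with overlap and few counts.

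Adgre1, which encodes the macrophage surface antigen F4/80, was present in every library and did not separate the fractions. It lay between 1.40 and 4.94 CPM in spermatocytes and between 1.49 and 4.06 CPM in round spermatids, a difference of -0.03 ± 0.18 (SE, edgeR adjusted p = 0.91). Mrc1, the mannose receptor, lay between 2.39 and 15.0 CPM and between 2.69 and 9.82 CPM, a difference of 0.13 ± 0.27 (SE, edgeR adjusted p = 0.73). Adgre1 lies on chromosome 17 (57358691 to 57483527, plus strand), and Mrc1 on chromosome 2 (14229392 to 14332057, plus strand) spans the microRNA gene Mir511. Wild-type spermatocytes therefore held counts of Adgre1, Mrc1, Apoe and C1qb in every used library. Csf1r, Cd74 and Cd68 also had counts in each, at most 10 in any of them, while C1qc and Lyz2 were at 0.

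With the 3 left-out libraries included under their labels, the same number of members, 8, was called in the fraction comparison (20% of genes) but the differences of the low genes shrank: Cd74 from 3.67 to 2.33, C1qa from 4.28 to 2.35, C1qc from 4.30 to 2.17 and Lyz2 from 5.08 to 2.90 on the log2 scale. The left-out library labelled wild-type spermatocytes held 19.0 CPM of Cd74, 4.56 of Csf1r, 2.91 of C1qa, 2.28 of C1qc, 1.99 of Lyz2 and 6.501 of C1qb, each above every used spermatocyte library. Its summed level of the 10 genes was 63.0 CPM, against 11.3 to 33.9 CPM in the used spermatocyte libraries, and its MHC class II sum was 54.4 CPM against 20.3 to 26.8 CPM. As the spermatid genes of this library and of its round spermatid partner go against their labels, values with the left-out libraries hold only for the labels as given.

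**Figure D2:**
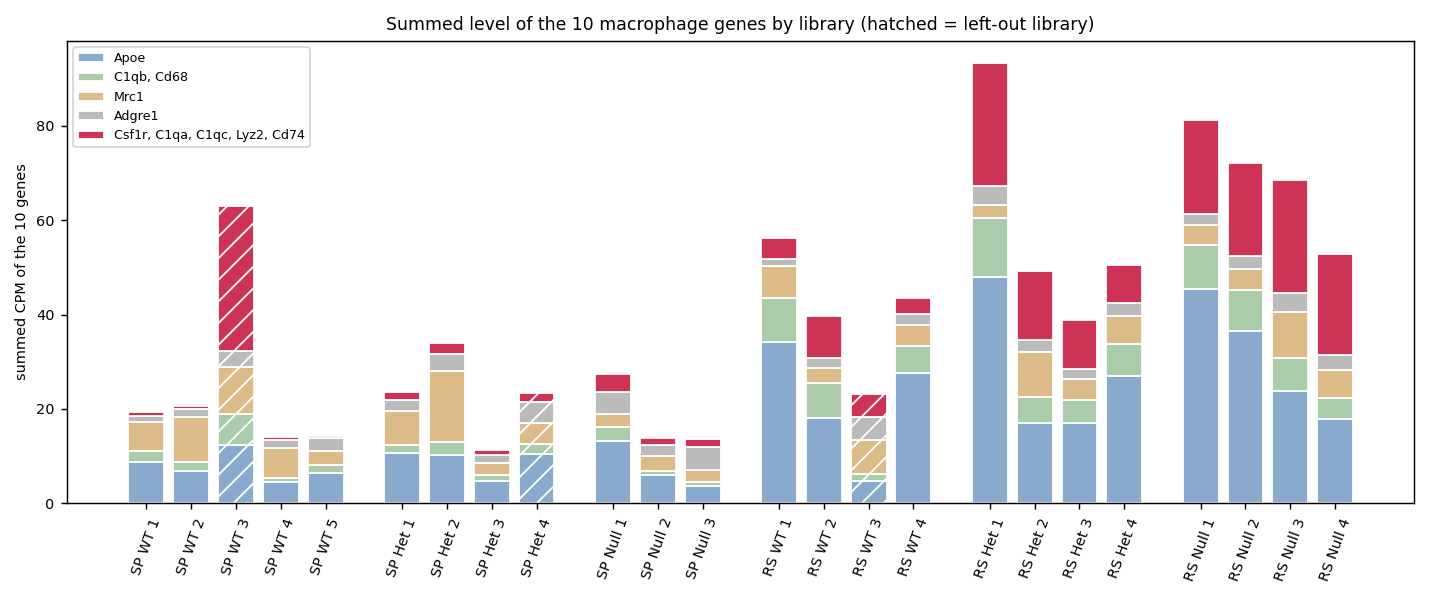
Summed CPM of the 10 genes (vertical axis, from 0) in each library, stacked by gene or gene group; hatched bars are the left-out libraries. Apoe makes up 27.6% to 63.6% of the sum in used libraries, and the red part (Csf1r, C1qa, C1qc, Lyz2 and Cd74) is 0.666 CPM on average in wild-type spermatocytes and 21.2 CPM in Ago413-/- round spermatids.

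The next comparison asked how the genes stood in each genotype within round spermatids, the contrast with which the set was selected. Csf1r, C1qa, C1qc, Lyz2 and Cd74 were higher in Ago413-/- than in wild-type libraries with no overlap, whereas Apoe, C1qb, Cd68 and Mrc1 overlapped. Adgre1 also did not overlap, with a smaller distance. Members whose Ago413-/- libraries all lay above the wild-type libraries numbered 6 of 10, against 9.9% of all tested genes. By edgeR 0 of the 10 members were called (0.0518% of genes), 6 had an unadjusted p under 0.05 (19.3% of genes), and DESeq2 called 1, Cd74 (3.64% of genes), giving no adjusted p for C1qa, C1qc, Cd68, Csf1r and Lyz2. With no filter on low counts edgeR called 5, Csf1r, C1qa, C1qc, Lyz2 and Cd74 (0.7% of genes). Nothing is read from these counts, because the contrast chose the genes.

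Cd74 stood at 2.21, 4.69 and 1.42 CPM in wild-type, at 15.8, 8.70, 6.05 and 3.28 CPM in heterozygous and at 9.76, 10.2, 15.3 and 12.5 CPM in Ago413-/- round spermatids. All Ago413-/- libraries exceeded the highest wild-type library, and the heterozygous libraries spanned the whole distance between them. The fitted difference of Ago413-/- from wild-type was 2.02 ± 0.45 on the log2 scale (SE, n = 4 and 3), and 2.65 without wild-type replicate 2, the highest wild-type library. Cd74 (chromosome 18, 60803848 to 60812652, plus strand) contains a microRNA gene, Mir5107, on the same strand.

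Csf1r stood at 0.766, 1.501 and 0.609 CPM in wild-type, at 3.11, 2.31, 1.45 and 1.13 CPM in heterozygous and at 2.59, 3.26, 2.56 and 2.76 CPM in Ago413-/- round spermatids, a difference of 1.44 ± 0.36 (SE). The Ago413-/- libraries lay within a narrow band and the heterozygous libraries reached from the wild-type range to above it. Csf1r (chromosome 18, 61100598 to 61132149, plus strand) overlaps Hmgxb3 on the opposite strand, and since the strand setting of the counting is not given in the sources used here, reads of the pair cannot be assigned with certainty.

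C1qa stood at 0.425, 0.842 and 0.676 CPM in wild-type, at 2.45, 1.13, 1.11 and 1.08 CPM in heterozygous and at 2.44, 2.25, 2.15 and 1.66 CPM in Ago413-/- round spermatids, a difference of 1.66 ± 0.35 (SE). C1qc stood at 0.0851, 0.659 and 0 CPM, at 2.21, 1.36, 1.11 and 1.31 CPM and at 1.71, 1.68, 1.38 and 1.49 CPM, a difference of 2.38 ± 0.57 (SE). Both chains were above wild-type in every heterozygous library as well. For C1qc, without wild-type replicate 2 the fitted difference was 4.73 rather than 2.38.

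Lyz2 stood at 0.893, 1.14 and 0.744 CPM in wild-type, at 2.63, 1.09, 0.726 and 1.08 CPM in heterozygous and at 3.42, 2.20, 2.68 and 2.93 CPM in Ago413-/- round spermatids, a difference of 1.53 ± 0.37 (SE). Apart from replicate 1, no heterozygous library exceeded the highest wild-type library. Lyz2 (chromosome 10, 117277331 to 117282321, minus strand) shares 32.8% of its 31-base words with its neighbour Lyz1, so its counts are uncertain to that extent, and Lyz1 itself stayed at or below 0.189 CPM in every used library.

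The other members showed small differences or none that stood clear of the spread. Apoe stood at 34.2, 17.98 and 27.7 CPM in wild-type and at 45.4, 36.6, 23.7 and 17.8 CPM in Ago413-/- round spermatids (0.18 ± 0.35, SE). C1qb stood at 9.10, 6.74 and 5.34 CPM and at 8.83, 7.66, 6.66 and 4.09 CPM (-0.10 ± 0.31, SE). The C1q genes, whose products assemble into one protein, were therefore unequal: C1qb kept a similar level while C1qa and C1qc were higher. Adgre1 (0.63 ± 0.27), Mrc1 (0.31 ± 0.39) and Cd68 (0.21 ± 0.52, SE) differed less.

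**Figure D3:**
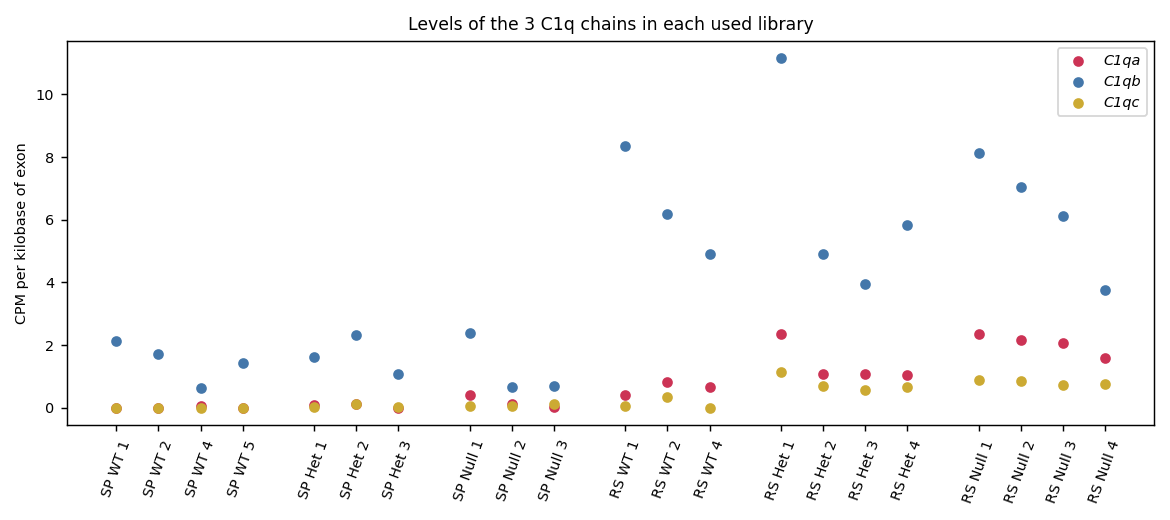
Levels of C1qa, C1qb and C1qc (CPM per kilobase of exon, vertical axis, from 0) in each used spermatocyte (SP) and round spermatid (RS) library. C1qb is the highest chain in every group, at a mean of 6.49 in wild-type and 6.26 in Ago413-/- round spermatids, while C1qa goes from 0.623 to 2.04 and C1qc from 0.128 to 0.810.

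C1qa, C1qb and C1qc lie together on chromosome 4 (136880129 to 136898803, mm10), and their cluster is 10.3 Mb from the deleted Argonaute genes (126331704 to 126533472) on the same chromosome.

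In their means the heterozygous round spermatids stood between the other genotypes for 9 of the 10 members, all but Cd68, by small amounts for Apoe and C1qb. The set was chosen by the difference between the outer genotypes and the share over all genes was not computed, so nothing is read from this count. Compared with wild-type, 0 of 10 members were called by edgeR (0.0207% of genes), 4 had an unadjusted p under 0.05 (8.88% of genes: Csf1r, C1qa, C1qc and Cd74) and DESeq2 called 1, C1qc (0.0363% of genes). Compared with heterozygous, Ago413-/- libraries had 0 members called by edgeR (0.00518%), 1 at an unadjusted p under 0.05, Lyz2 (7.67%), and 0 by DESeq2 (0.104%). Every heterozygous range overlapped the Ago413-/- range. Replicate 1 of the heterozygous round spermatids had the highest sum of all, 93.4 CPM, against 38.9 to 50.4 CPM in the other heterozygous libraries.

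**Figure D4:**
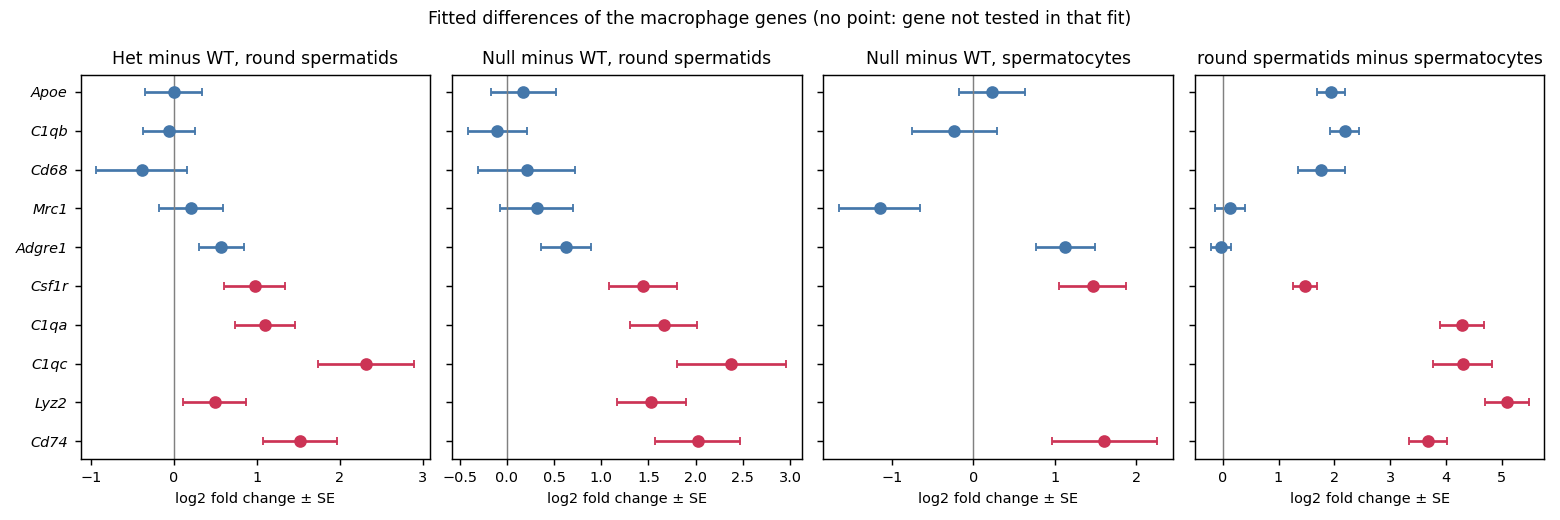
Fitted log2 differences with standard errors (horizontal axis, own scale per panel) of the members for heterozygous and Ago413-/- against wild-type round spermatids, Ago413-/- against wild-type spermatocytes, and round spermatids against spermatocytes; red points are Csf1r, C1qa, C1qc, Lyz2 and Cd74. C1qc, Cd74 and C1qa lie farthest from 0 in the genotype panels for round spermatids, and Mrc1 lies below 0 in spermatocytes.

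In spermatocytes Csf1r and Adgre1 had higher and Mrc1 lower mean levels in Ago413-/- than in wild-type libraries, and no member passed the test. Of the 10 members 6 were tested, and in Ago413-/- against wild-type 0 were called by edgeR (0.0411% of genes), 4 had an unadjusted p under 0.05 (30.4% of genes) and DESeq2 called 1, Adgre1 (15.6% of genes), with no adjusted p for Cd74 and Csf1r. With no filter on low counts, which tested all 10, edgeR called Adgre1 and Mrc1 (7.61% of genes), and C1qa, C1qc, Lyz2, Cd74 and Csf1r had an unadjusted p under 0.05 without being called (7 of 10 members at that p in all, against 20.4% of genes). Csf1r stood at 0.451, 0.226, 0.436 and 0.313 CPM in wild-type and at 1.34, 0.709 and 0.922 CPM in Ago413-/- spermatocytes, without overlap, 1 of the 6 tested members against 13.6% of tested genes (1.46 ± 0.41, SE, edgeR adjusted p = 0.064). For C1qc and Lyz2, which were not tested, Ago413-/- libraries lay above wild-type libraries that were at 0, with under 10 counts each. Adgre1 stood at 1.40, 1.65, 1.60 and 2.66 CPM and at 4.78, 2.32 and 4.94 CPM (1.13 ± 0.37, SE, edgeR adjusted p = 0.076). Cd74 differed by 1.61 ± 0.65 (SE, edgeR adjusted p = 0.12), with Ago413-/- replicate 1 highest at 1.77 CPM, and without that library the value was 0.60. Csf1r and Cd74 had only 31 and 24 counts over the 4 wild-type spermatocyte libraries.

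Mrc1 went the other way, at 5.96, 9.55, 6.40 and 3.03 CPM in wild-type, 7.07, 15.0 and 2.61 CPM in heterozygous and 2.63, 3.21 and 2.39 CPM in Ago413-/- spermatocytes (-1.15 ± 0.50, SE, edgeR adjusted p = 0.14). Beside it, the 10 tested Sertoli genes had a median of -0.74, 0 of them higher and 0 at an unadjusted p under 0.05, and their sum was 98.6 to 175 CPM in Ago413-/- and 161 to 439 CPM in wild-type libraries. The 4 tested fibroblast genes had a median of 0.49 and the 1 tested erythrocyte gene stood at -1.38, against -0.03 over all genes. Germ cell lists also differed in their counts at an unadjusted p under 0.05 (30.4% of all genes), with 0 called by edgeR: 4 of 7 spermatogonial genes were higher (median 0.71), 3 of 7 spermatid genes were higher (median 0.22) and 3 of 6 spermatocyte genes were lower (median -0.36). The part of these cell types in the spermatocyte values was not tested. Apoe (0.23 ± 0.40) and C1qb (-0.23 ± 0.52, SE) did not pass the test. C1qa, C1qc, Lyz2 and Cd68 did not pass the filter, with at most 10 counts in any used spermatocyte library. Without wild-type replicate 5, 2 members were called in this comparison (Csf1r and Adgre1), and without heterozygous replicate 3 these and Mrc1 were called. In the same fits the share of all genes called went from 0.0411% to 23.6% and 19.4%.

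Heterozygous spermatocytes had 0 of 6 members called against wild-type by edgeR (0.0257% of genes), 1 at an unadjusted p under 0.05, Csf1r (24.6%), and 0 by DESeq2 (6.31%). Ago413-/- against heterozygous spermatocytes had 0 by edgeR (0.00514%), 1 at an unadjusted p under 0.05, Mrc1 (3.74%), and 0 by DESeq2 (0.0206%). Including the 3 left-out libraries turned the Ago413-/- minus wild-type values of Cd74 from 1.61 to -2.18 and of Csf1r from 1.46 to -0.26 in spermatocytes, where the added library labelled wild-type had the high values given above and spermatid genes against its label.

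An interaction term compared the genotype difference between the fractions. It contains the round spermatid contrast that chose the set, so for the members it is a description and no p is read as support. C1qa, C1qc and Lyz2 also entered this fit only through round spermatids. By edgeR 0 members were called (0% of genes), 1 had an unadjusted p under 0.05 (5.95% of genes), Mrc1 with a difference of 1.49 ± 0.67 (SE, edgeR adjusted p = 0.81), and DESeq2 called 0 (0% of genes). For Csf1r the interaction was 0.06 ± 0.65 (SE, edgeR adjusted p = 0.99), and for Cd74 0.47 ± 0.86 (SE, edgeR adjusted p = 0.92). For Lyz2 it was -2.46 ± 1.20, for C1qc -2.11 ± 1.37 and for C1qa -1.83 ± 1.10 (SE, edgeR adjusted p = 0.81 for each), values that depend on the prior count because wild-type spermatocytes were at or near 0. With the left-out libraries added under their labels, the median interaction of the 10 members went from -0.22 to 1.59. Positive values went from 5 to 8 members, and 5 had an unadjusted edgeR p under 0.05 (7.8% of genes). Taken by genotype, Mrc1 differed between round spermatids and spermatocytes by -0.30 ± 0.47 in wild-type, -0.52 ± 0.46 in heterozygous and 1.20 ± 0.48 in Ago413-/- libraries (SE), and none of these passed the test.

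The members followed different sets of other genes from library to library. Correlations below are over the 21 libraries after the mean of each fraction was subtracted, are descriptions without a test, and were added after the values had been seen; libraries share genotype and depth. For Csf1r, C1qa, C1qc, Lyz2 and Cd74 all Ago413-/- round spermatid libraries lay above wild-type, the contrast that chose the set. Genotype means were not subtracted, so a shared genotype difference enters the correlations below. These 5 genes moved together, with Pearson's r between 0.64 and 0.86 over their 10 pairs, and r between 0.66 and 0.75 to the summed MHC class II genes. They had r of 0.67 to 0.70 to the fibroblast list, which was the closest list of C1qa and C1qc, of -0.54 to -0.76 to the spermatocyte list and of 0.18 to 0.58 to the summed other macrophage genes. That sum mostly follows Aif1, at 469 CPM on average with Msr1 next at 16.7 CPM, so its r says little about the rest of that list. Apoe and C1qb followed the spermatid genes instead (r = 0.89 and 0.82), and Mrc1 followed the Sertoli cell genes (r = 0.93) and the erythrocyte list (r = 0.81). Adgre1 followed the endothelial list (r = 0.78) and the APOE receptor list (r = 0.84), whose most abundant gene is Lrp8, and also had r of 0.60 to 0.69 to each of Csf1r, C1qa, C1qc, Lyz2 and Cd74, close to the lower end of their own pairs, and of -0.725 to the spermatocyte list. Cd68 followed no list above 0.34.

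**Figure D5:**
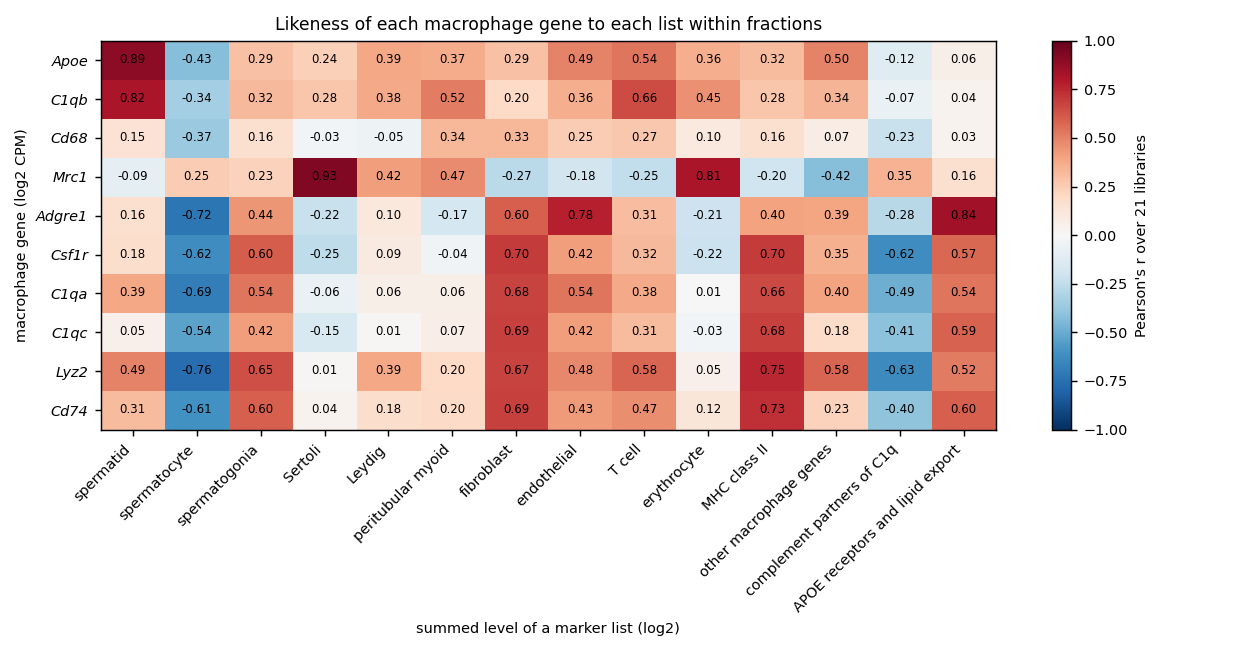
Pearson's r over 21 libraries, centred within each fraction, between the log2 CPM of each member (rows) and the log2 summed level of each marker list (columns). Apoe and C1qb are reddest in the spermatid column (0.89 and 0.82), Mrc1 in the Sertoli column (0.93) and the lower 5 genes in the MHC class II and fibroblast columns.

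Among single genes, the one closest to Apoe was Fam71f2 (r = 0.95, 477 CPM on average), followed by 1700001O22Rik (0.95), Gm16279 (0.94), Rcc1 (0.94) and Spata18 (0.94). Without centring, the order among the genes most like Apoe began in the same way with Fam71f2 and 1700001O22Rik (0.99 each). For the mean of all 10 members without centring, the closest genes were Gm34368 (0.96), Arhgap26 (0.96), H2-Eb1 (0.96), Abca9 (0.95), H2-Aa (0.95), Pappa (0.95), Srpk2 (0.95), Ergic1 (0.95), Smok2a (0.94) and Dpp6 (0.94). H2-Eb1 and H2-Aa encode MHC class II chains, the partners of Cd74. With centring these gave way to Nt5dc2 (0.86) and Lamp2 (0.86), which encodes a lysosomal membrane protein.

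Partners of the members in antigen presentation differed between the fractions. Of the 6 MHC class II genes, 5 were tested in the fraction comparison, where 3 were called higher in round spermatids and 1 lower, against 27.6% of all genes called in either direction. H2-Aa (3.59 ± 0.32, SE, edgeR adjusted p = 2.3e-07) and H2-Ab1 (1.31 ± 0.17, SE, edgeR adjusted p = 2.2e-06) rose, and H2-DMb1, which helps load peptides, was lower (-0.76 ± 0.16, SE, edgeR adjusted p = 0.00066). H2-Aa averaged only 0.361, 0.398 and 0.704 CPM in wild-type, heterozygous and Ago413-/- spermatocytes. The filter of this fit counts both fractions, so a gene that low in spermatocytes can enter through round spermatids, where it is high. In Ago413-/- against wild-type round spermatids 0 were called by edgeR, 3 had an unadjusted p under 0.05 (19.3% of all genes) and DESeq2 called 3 (3.64% of all genes), with a median of 0.83 against 0.03 over all genes, and their sum was 48.2 to 54.6 CPM against 27.3 to 35.4 CPM in wild-type.

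Of the 6 complement partners of C1q, 5 were tested in round spermatids and 0 were called by edgeR in Ago413-/- against wild-type, with 1 higher and 1 lower at an unadjusted p under 0.05 (19.3% of all genes) and 1 lower by DESeq2 (3.64% of all genes). That gene was C4b, a target cleaved by the C1 complex, at 31.7 ± 4.73 CPM in wild-type and 22.2 ± 3.79 CPM in Ago413-/- round spermatids (SD, n = 3 and 4; -0.55 ± 0.15, SE). Of the CSF1R ligands, Il34 stood at 0.966 ± 0.105 and 0.437 ± 0.213 CPM (SD) and Csf1 at 0.273 ± 0.176 and 0.346 ± 0.295 CPM (SD). Lrp8, an APOE receptor, stood at 34.7 ± 5.79 and 46.7 ± 4.24 CPM (SD).

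Among 33 other macrophage genes, 19 were tested in round spermatids and 16 were higher in Ago413-/- libraries, with 0 called by edgeR, 6 at an unadjusted p under 0.05 (19.3% of all genes), 2 called by DESeq2 (3.64% of all genes) and a median of 0.60 against 0.03 over all genes. The sum of that list is set by Aif1, which stood at 574 ± 113 CPM in wild-type and 707 ± 104 CPM in Ago413-/- round spermatids (SD) and at 240 ± 63.0 CPM in wild-type spermatocytes. Msr1, a scavenger receptor, stood at 12.5 ± 2.39 and 21.4 ± 0.632 CPM (SD) in the 2 round spermatid groups. Neutrophil genes summed to at most 0.226 CPM and mast cell genes to at most 0.663 CPM in any used library.

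Of the fibroblast, spermatid, spermatocyte and Sertoli lists, 0 genes were called by edgeR in Ago413-/- against wild-type round spermatids. All 6 fibroblast genes had higher values in Ago413-/- libraries, with a median of 0.95, 3 at an unadjusted p under 0.05 (19.3% of all genes) and 1 called by DESeq2 (3.64% of all genes), and their sum was 6.70 to 12.4 CPM against 3.91 to 4.69 CPM. The 7 spermatid genes all had higher values, with a median of 0.35 and 3 at an unadjusted p under 0.05, and the sum of the spermatocyte genes was 1550 to 1727 CPM against 1878 to 2039 CPM. Sertoli genes had a median of 0.17 with 0 at an unadjusted p under 0.05 and summed to 238 to 449 CPM against 184 to 445 CPM. In the fraction comparison, among lists whose tested genes all passed the filter in spermatocytes too, edgeR called higher 4 of 7 spermatid genes, 3 of 5 peritubular myoid genes, 2 of 6 endothelial genes, 3 of 10 Sertoli genes and 0 of 6 Leydig genes, against the 27.6% of all genes called in either direction. The part of these cell types in the values of the macrophage genes was not tested.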

How the data were processed

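Raw counts per gene were deposited for 24 libraries prepared with a directional poly(A) kit. Per the labels and the submitters' processing notes, the authors trimmed reads with Trim Galore, aligned them to mm10 with STAR and counted reads per gene; versions, the annotation release and the strand setting are not given in the sources used here. All 55536 gene rows matched GENCODE M21. The 3 libraries labelled as outliers were left out. A gene was tested where 3 or more of the libraries in a fit held a minimum of 10 of its counts, with edgeR 4.0.16 (quasi-likelihood, TMM scaling, Benjamini-Hochberg adjustment), all genotypes of a fraction together or all 6 groups together, and called at an adjusted p under 0.05 and a log2 fold change beyond 0.5. DESeq2 1.42.0 was an alternative. The tests were tried on simulated data. CPM were computed on TMM-scaled totals of the tested genes, with a prior count of 2 for log2 values. Correlations used Python 3.11.15.

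All 10 members are named. From other lists up to 4 genes may be named, those with the highest mean CPM, and the genes most like the members are those with the highest correlation among genes with a mean of 1 CPM or more. Likeness to marker lists, the motif and the sum of Csf1r, C1qa, C1qc, Lyz2 and Cd74 were added after the values had been seen. The members and the lists were chosen with earlier results of these data known. The replicates are pools of mice, and nothing states which pools share animals, so p-values measure the spread between these libraries. With counts of 0 to 70 in C1qa, C1qc, Cd68 and Lyz2 and of 3 to 68 in Csf1r, counting error limits their precision. The same holds for Cd74 in spermatocytes, where it had as few as 4 counts. Leaving out each library, adding the outliers back, other scaling, no filter, a replicate block and library number were tried as alternatives.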

Additional observations from a re-analysis of the deposited data

Results flagged for a closer look

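The library labelled wild-type spermatocytes replicate 3, which the labels leave out as an outlier, held a summed level of 63.0 CPM of the 10 genes and stood above the highest used wild-type spermatocyte library at 20.6 CPM. The library labelled heterozygous spermatocytes replicate 4, also left out, held 23.4 CPM, above the same wild-type library and within the 11.3 to 33.9 CPM of the used heterozygous spermatocyte libraries.

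Of 31 sets of values (a gene, or the sum of the 10, in a group of 4 libraries, leaving out genes at 0 in all of them), 3 had a library far from the others. Chance gives about 1 in 20 for continuous values, a rate that does not hold for sets with counts this low. C1qa stood at 0.0485 CPM (1 count) in wild-type spermatocyte replicate 4 with 0 in the other 3 libraries, where any single count stands apart. C1qa stood at 2.45 CPM in heterozygous round spermatid replicate 1 with 1.08 to 1.13 CPM in the others, and Cd68 at 1.01 CPM in Ago413-/- round spermatid replicate 2 with 0.406 to 0.442 CPM in the others.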

How the results depend on the processing

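The 8 members called between the fractions stayed 8 under every alternative run, where 16.6% to 29.5% of all genes were called, and the interaction stayed at 0 called genes. The 8 include C1qa, C1qc, Lyz2 and Cd68, which in the reported fit were tested only through round spermatids. Genotype calls moved with the settings, and the causes were not tested. In Ago413-/- against wild-type spermatocytes the number of genes called was 8, with 2623 under no filter on low counts, 3026 with DESeq2, 687 with a replicate block, 4 with a term for library number, 1303 with only the compared groups and 4 to 4526 on leaving out one library, the highest without wild-type replicate 5; members called were 0, with 2 under no filter (7.61% of genes), 1 with DESeq2 (15.6%) and 0 to 3 on leaving out one library, with 2 without wild-type replicate 5 (23.6% of genes) and 3 without heterozygous replicate 3 (3740 genes, 19.4%). In heterozygous against wild-type spermatocytes the 5 genes became 1481 with no filter, 1228 with DESeq2, 3 with the outliers added back, 2 with the replicate block, 2 with only the compared groups and 3 to 2966 on leaving out one library. In Ago413-/- against heterozygous spermatocytes the 1 gene became 30 (0.0871%, and 1 member, Mrc1) with no filter, 4 with DESeq2 and 0 with only the compared groups. In round spermatids the 10 genes of Ago413-/- against wild-type became 20 with DESeq2 size factors, 238 with no filter (0.7%, 5 members), 702 with DESeq2 (3.64%, 1 member), 26 with the outliers added back and 5 to 16 on leaving out one library, with 0 to 1 members (the 1 without wild-type replicate 2, with 0.0419% of genes). The 4 genes of heterozygous against wild-type became 10 with no filter and 7 with DESeq2 (0.0363%, 1 member), with 3 to 4 genes and 0 to 1 members on leaving out one library (the 1 without wild-type replicate 2, with 0.0209% of genes), and the 1 gene of Ago413-/- against heterozygous became 11 with no filter, 20 with DESeq2 and 1 to 2 on leaving out one library.

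Over all alternatives of the Ago413-/- against wild-type and fraction comparisons, 524 values of single members kept their direction and their side of the threshold. Of the rest, 15 passed it where the reported value did not, and 22 reversed. Among these, adding the outliers back reversed Csf1r (-0.26) and Cd74 (-2.18) in spermatocytes and C1qb (0.23) in round spermatids. It also took heterozygous against wild-type spermatocytes from 6 to 3 positive members of 6 (median 0.48 to -0.15). The interaction went from 5 to 8 positive members of 10 (median -0.22 to 1.59). Leaving out one library gave ranges that crossed 0 for Apoe (-0.44 to 0.56) and C1qb (-1.13 to 0.072) in spermatocytes, for Apoe (-0.072 to 0.41), C1qb (-0.26 to 0.13), Cd68 (-0.20 to 0.83) and Mrc1 (-0.0049 to 0.64) in Ago413-/- against wild-type round spermatids, and for Adgre1 (-0.12 to 0.058) and Mrc1 (-0.033 to 0.38) between the fractions. Summed levels without Apoe were 10.5 CPM in wild-type spermatocytes and 19.8, 30.7 and 37.8 CPM in wild-type, heterozygous and Ago413-/- round spermatids. Summed over Csf1r, C1qa, C1qc, Lyz2 and Cd74 they were 0.666, 1.65 and 2.31 CPM in spermatocytes and 5.55, 14.8 and 21.2 CPM in round spermatids. With the outliers the wild-type spermatocyte sum was 26.3 CPM.

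Replicate numbers did not pair the libraries: of 17 pairs with the same number in a fraction, 4 had deviations correlated above 0.1 (-0.24 to 0.17). With the replicate block Adgre1 between the fractions was 0.044, and no member's call changed. Spermatocyte and round spermatid libraries with consecutive library numbers had deviations correlated above 0.1 in 8 of 9 pairs (-0.14 to 0.31), so they may not be independent, and a fit with these pairs called 8 members and 5124 genes between the fractions. C1qa, C1qc, Cd68 and Lyz2 had at most 10 counts in any used spermatocyte library, which limits the precision of their values there.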
